A study of Homo sapiens with 6 samples.

Results

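Macroautophagy encloses cytoplasm in a double membrane, the autophagosome, and delivers it to the lysosome for breakdown. Autophagosomes start on the endoplasmic reticulum (ER), where a kinase complex around ULK1 and a lipid kinase complex around PIK3C3 mark the site, ATG2 and ATG9 supply lipid, and a pair of conjugation systems attach LC3 and GABARAP proteins to the growing membrane. Receptors that bind these proteins select the cargo, and a set of ER-resident receptors directs pieces of the ER itself to the lysosome, a process called ER-phagy. HYOU1 encodes a large ER chaperone, so the series allows the transcripts of this machinery to be followed in cells with less HYOU1.

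The genes described here are 43 components of the autophagy machinery and ER-phagy receptors, chosen by name from the 58735 genes of the deposited table. All 43 names matched a single row each. RNA sequencing had been run on 3 libraries of cells carrying a short hairpin RNA (shRNA) against HYOU1 and on 3 libraries of cells carrying a control shRNA. The labels give Hep3B, an established human liver cancer line, as the cells of both groups and name no further treatment. The labels name neither the hairpin sequences, nor the number of hairpins, nor the time after knockdown, and they do not say whether replicates were separate cultures, so the p-values below cover the spread among libraries only, and part of that spread may be technical. Levels are in FPKM, fragments per kilobase of gene and per unit of scaled library depth, so they can be compared between genes.

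HYOU1 was at 2.35, 2.32 and 2.37 FPKM in HYOU1 shRNA replicates 1 to 3 and at 37.6, 58.2 and 59.5 FPKM in control shRNA replicates 1 to 3 (log2 fold change -4.38, limma adjusted p = 0.00119), which matched the labels. The libraries held 16893091 to 18233240 recovered fragments. Mitochondrial genes took 3.39% to 3.84% of fragments in HYOU1 shRNA libraries and 4.96% to 7.59% in control libraries. None of the 16 hepatocyte markers tried reached a mean of 1 FPKM, and ALB, APOA2, APOB, APOH and TTR were listed at 0 in every library, so the defining hepatocyte markers were missing in both groups, against what the label would give. Summed over the 16 markers the level was 1.18 to 1.67 FPKM in HYOU1 shRNA libraries and 3.04 to 3.70 FPKM in control libraries. Among 6 biliary markers 4 reached 1 FPKM, and the 6 summed to 63.9 to 68.0 FPKM in HYOU1 shRNA libraries and 53.2 to 58.8 FPKM in control libraries. Among 7 fibroblast markers 4 did, and the 7 summed to 10.5 to 11.1 FPKM in HYOU1 shRNA libraries and 10.4 to 12.4 FPKM in control libraries. COL1A2, another of the 7, was listed at 0 in every library. All 6 immune and all 5 endothelial genes stayed below 1 FPKM, with PTPRC, CD3E, LYZ and KDR listed at 0 throughout. Summed levels were 0.0289 to 0.258 FPKM (immune) and 0.179 to 0.221 FPKM (endothelial) in HYOU1 shRNA libraries, against 0.192 to 0.601 and 0.514 to 0.654 FPKM in control libraries. In bulk RNA, fewer cells of a type and less RNA per cell cannot be told apart. The part of these differences in the results below was not tested.

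Control shRNA replicate 1 stood apart from the other control libraries along the GC content of transcripts. Among all tested genes its median deviation from control replicates 2 and 3 ran from 0.76 (log2) in the tenth of genes with the lowest GC content to -1.0 in the tenth with the highest. The autophagy genes followed the same line. All 19 members with a GC content under 45% were higher in control replicate 1 than in the mean of the other control libraries, and all 9 members at or above 55% were lower. Across the 43 members, which share these 3 libraries, the deviation correlated with GC content at a Pearson r of -0.86 and a Spearman rho of -0.84. The extremes were RETREG1, at 0.96 with 41.2% GC, and ATG4D, at -1.40 with 64.8% GC. Results are therefore given with all 6 libraries and without control replicate 1, and also after a correction that removes the trend on GC content from every library.

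**Figure D1:**
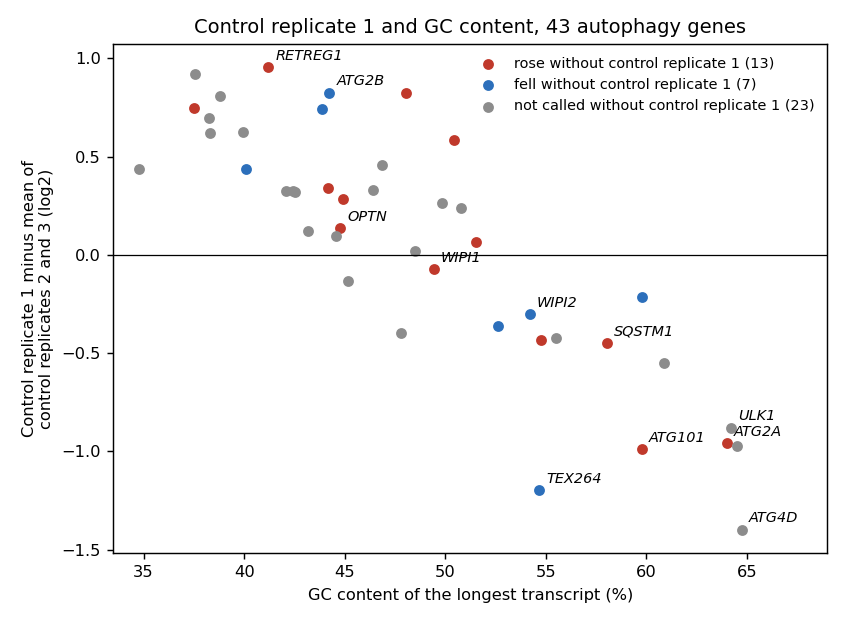
Deviation of control shRNA replicate 1 from the mean of control replicates 2 and 3 (log2 scale, y axis) against the GC content of the longest transcript (%, x axis) for the 43 autophagy genes. Each point is a gene, coloured by its call in the fit without control replicate 1 (13 rose, 7 fell, 23 not called). Points fall from the upper left to the lower right, while WIPI1 and OPTN lie close to 0.

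All 43 members had mean levels between 1.33 FPKM (ATG10) and 48.5 FPKM (SQSTM1), with a median of 8.51 FPKM, and all passed the filter of a mean of at least 1 FPKM. Reads of ATG10 may be mixed with those of RPS23, which shares 6.86% of its exonic bases on the other strand and averaged 50.6 FPKM. The level of ATG10 is therefore uncertain. The lowest number of fragments behind any value was 32, for MAP1LC3A. With all 6 libraries, 2 members rose, 0 fell and 41 did not pass (limma, adjusted p under 0.05 over all 12448 tested genes). Among all tested genes 12.3% were called, with 6.60% higher and 5.66% lower, so the share of the autophagy genes, 4.65%, lay below the background. At an unadjusted p under 0.05 there were 10 members, 8 higher and 2 lower, a share of 23.3% that lay below the 31.5% of all tested genes (17.0% higher and 14.6% lower). Limma's voom on the recovered fragments called 3 members and 14.2% of all genes, with ATG2B, which fell by 1.17 on the log2 scale, beside the same 2. The members' median log2 fold change was 0.04, against 0.04 for all tested genes, and the median absolute change was 0.24, against 0.34. For 35 of the 43 members the 95% interval of the log2 fold change lay entirely between -1 and 1, that is, within a 2-fold change either way.

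The ranges of the groups were separate for 17 members, 9 higher and 8 lower in HYOU1 shRNA libraries. That is 39.5% of members, beside 44.4% of all tested genes (23.8% higher and 20.6% lower). With control replicate 1 set aside, 17 members were higher and 10 lower without overlap, where 65.8% of all tested genes did not overlap (35.0% higher and 30.8% lower). Without control replicate 1, 20 members passed, 13 of which rose and 7 fell. The share was 46.5%, near the 44.3% of all tested genes (24.6% higher and 19.7% lower). After the GC correction 17 members passed, 9 rising and 8 falling, a share of 39.5% against 40.6% of all tested genes (20.4% higher and 20.2% lower). In both of these fits 15 members passed in the same direction, 9 of them higher and 6 lower. The share of all tested genes that passed in both was not counted, so this number has no background beside it. The count of 2 called members became 0 without HYOU1 shRNA replicate 1, 2 or 3 or without control replicate 2, and 1 without control replicate 3. Calls over all tested genes dropped in the same fits, to 1.01%, 0.683%, 0.394%, 2.87% and 8.21%, so the loss was not particular to the members.

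**Figure D2:**
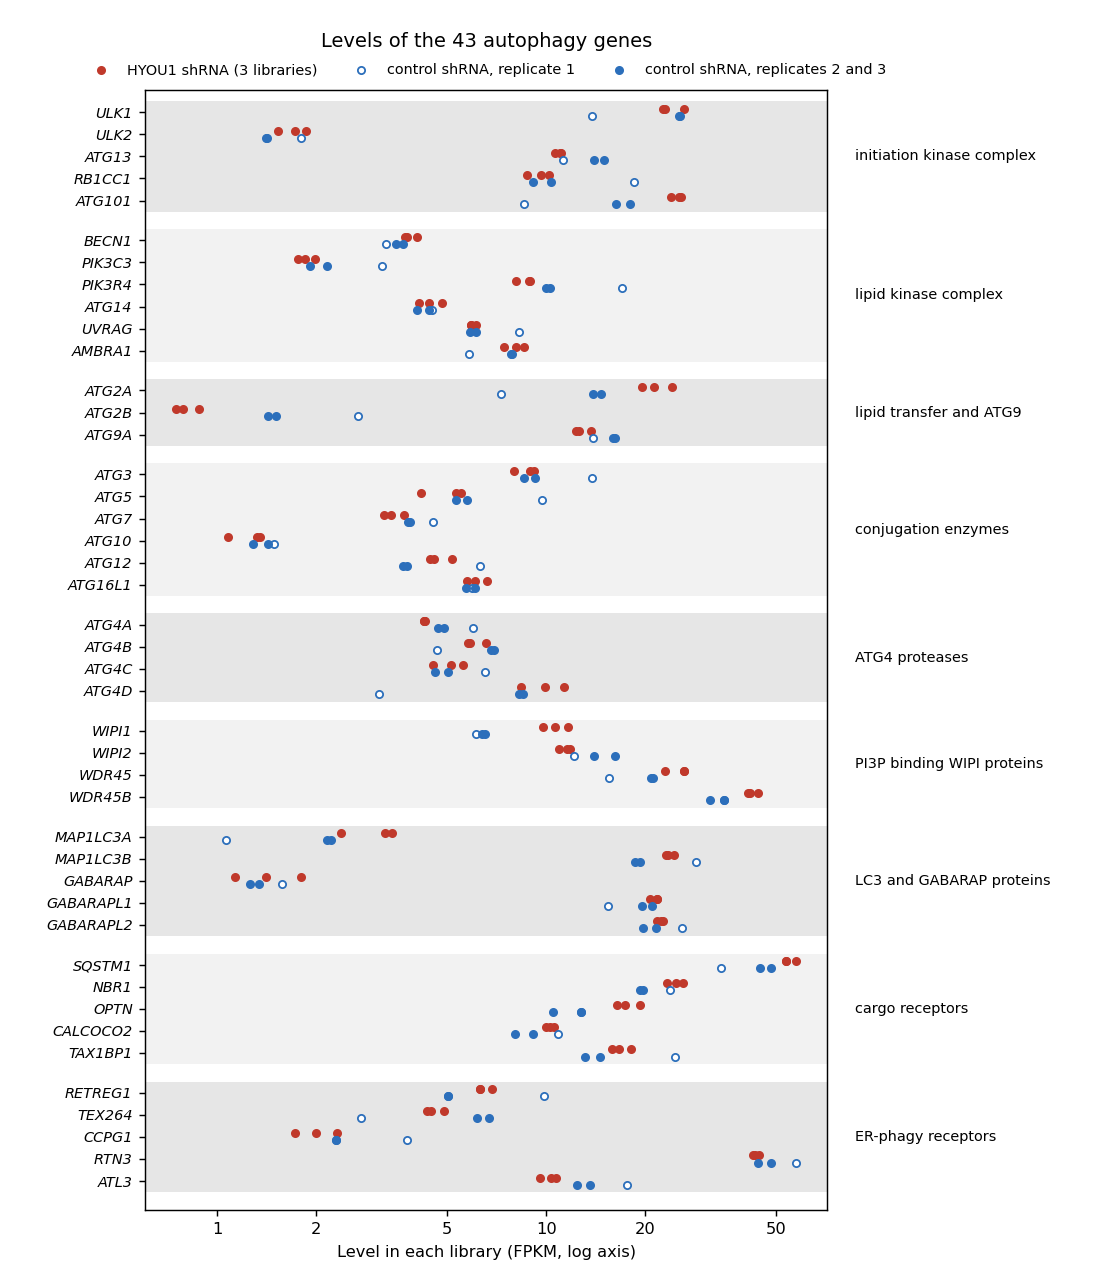
Level of each of the 43 autophagy genes in each library (FPKM, log axis), grouped by role. Filled red points are the 3 HYOU1 shRNA libraries, filled blue points control shRNA replicates 2 and 3, and open points control replicate 1. SQSTM1, RTN3 and WDR45B were the most abundant members, and the open points often lie outside the range of the other libraries.

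WIPI1 had the lowest adjusted p of the 43. It encodes a propeller protein that binds the lipid PI3P on forming autophagosomes, and it was at 9.77, 10.7 and 11.6 FPKM in HYOU1 shRNA replicates 1 to 3, against 6.13, 6.40 and 6.52 FPKM in control replicates 1 to 3. All HYOU1 shRNA libraries lay above all control libraries, and control replicate 1 was close to the other controls. WIPI1 rose 1.67-fold, by 0.74 on the log2 scale (standard error 0.12, 95% interval 0.45 to 1.03, limma, adjusted p = 0.0158). The difference was 0.71 without control replicate 1 (adjusted p = 0.000507) and 0.74 after the GC correction (adjusted p = 0.000737). The call was lost when HYOU1 shRNA replicate 1, 2 or 3 or control replicate 2 was left out (adjusted p = 0.0787, 0.0979, 0.105 and 0.0647). WIPI1 (ENSG00000070540) lies on chromosome 17 from 68420948 to 68457513 on the minus strand (GRCh38), and 24.3% of its exonic bases are shared with ARSG, a sulfatase gene on the other strand. ARSG averaged 2.46 ± 0.170 FPKM in HYOU1 shRNA libraries and 3.43 ± 0.227 FPKM in control libraries (SD, n = 3 each), a difference in the other direction.

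OPTN, the other member that rose, encodes optineurin, an autophagy receptor for ubiquitinated cargo such as damaged mitochondria and bacteria. Its level was 19.2, 16.4 and 17.3 FPKM in HYOU1 shRNA replicates 1 to 3 and 12.7, 12.8 and 10.5 FPKM in control replicates 1 to 3. The groups did not overlap, and control replicate 1 was close to control replicate 2. OPTN rose 1.47-fold, by 0.56 on the log2 scale (standard error 0.13, 95% interval 0.24 to 0.88, limma, adjusted p = 0.0428). Without control replicate 1 it was 0.60 (adjusted p = 0.00219) and after the GC correction 0.65 (adjusted p = 0.00276). The call ended when any single library other than control replicate 1 was left out (adjusted p between 0.0905 and 0.184), and also under a replicate block (adjusted p = 0.0736), quantile normalization (adjusted p = 0.0713) or a looser filter of 0.1 FPKM (adjusted p = 0.0577). The OPTN call was also lost when no filter was applied. OPTN (ENSG00000123240) lies on chromosome 10 from 13099449 to 13138308 on the plus strand.

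The promoters of these genes are shown because they are the members that changed with all libraries in the fit. Each covers the 300 bases around a transcription start in RefSeq (GRCh38.p14), most of them upstream, 5′ to 3′ on the gene's strand, at chr17:68457447-68457746 (minus strand) for WIPI1 and, for the upstream of 2 listed starts, chr10:13099832-13100131 (plus strand) for OPTN. Capitals mark matches to the motifs searched.
WIPI1: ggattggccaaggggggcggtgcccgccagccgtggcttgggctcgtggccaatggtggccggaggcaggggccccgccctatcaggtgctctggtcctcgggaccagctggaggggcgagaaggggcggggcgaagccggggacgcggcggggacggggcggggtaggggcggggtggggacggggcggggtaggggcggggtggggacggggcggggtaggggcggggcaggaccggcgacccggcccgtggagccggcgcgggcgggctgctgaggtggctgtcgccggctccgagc
OPTN: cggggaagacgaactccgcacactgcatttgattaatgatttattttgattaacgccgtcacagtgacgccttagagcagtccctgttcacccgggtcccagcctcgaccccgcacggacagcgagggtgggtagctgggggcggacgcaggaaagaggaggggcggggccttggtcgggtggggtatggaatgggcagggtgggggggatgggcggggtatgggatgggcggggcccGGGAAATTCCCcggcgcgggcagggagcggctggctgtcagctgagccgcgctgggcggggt

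Promoter sequences were found for 38 of the 43 members and were searched on both strands for 4 motifs. CACGTG, the core of the CLEAR element bound by the lysosome and autophagy regulators TFEB and TFE3, was present in the promoters of ATG3 and ATG14 among the 38, and in 7.26% of 35116 promoters in the table. Its longer form TCACGTGA, which contains CACGTG, was present in that of ATG3 and in 0.980% of all promoters. TGATGNAA, the element bound by ATF4 with C/EBP partners, was present in that of WDR45 and in 3.62% of all. GGGAANTTC, a form of the NF-kB binding element that was searched after the OPTN promoter had been read, matched in OPTN at bases 239 to 249 of the sequence above, where a match on each strand overlaps, and in 1.20% of all promoters. The WIPI1 promoter, with a GC content of 79.7%, held no match to these letters.

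The initiation complex consists of the kinases ULK1 and ULK2, the adaptor ATG13, the scaffold RB1CC1 (FIP200) and ATG101, which stabilises ATG13. ATG101 was at 23.9, 25.2 and 25.7 FPKM in HYOU1 shRNA replicates 1 to 3 and at 8.57, 16.3 and 17.9 FPKM in control replicates 1 to 3. The groups did not overlap, but the controls were spread widely, and the log2 fold change of 0.87 did not pass (limma, adjusted p = 0.0878). It passed without control replicate 1, at 0.54 (adjusted p = 0.000587), and after the GC correction, at 0.58 (adjusted p = 0.00286). Its binding partner ATG13 went the other way in those fits, at -0.41 (adjusted p = 0.00208) and -0.36 (adjusted p = 0.00523), with 11.0, 11.1 and 10.6 FPKM in HYOU1 shRNA libraries against 11.3, 14.0 and 15.0 FPKM in control libraries, without overlap.

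ULK1, the more abundant kinase, was at 22.9, 22.7 and 26.2 FPKM in HYOU1 shRNA replicates 1 to 3 and at 13.8, 25.3 and 25.5 FPKM in control replicates 1 to 3. The low value of control replicate 1, in a gene with 64.2% GC, set the sign of its difference, which was 0.20 with all libraries (limma, adjusted p = 0.608), -0.09 without control replicate 1 (adjusted p = 0.380) and -0.24 after the GC correction (adjusted p = 0.0182). ULK2 averaged 1.71 ± 0.164 FPKM in HYOU1 shRNA libraries and 1.54 ± 0.223 FPKM in control libraries, and RB1CC1 averaged 9.53 ± 0.737 and 12.6 ± 5.07 FPKM in the same groups (SD, n = 3 each). Neither passed in any of the 3 fits.

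The lipid kinase complex makes PI3P on the membrane. Its catalytic subunit PIK3C3 (VPS34), the regulatory kinase PIK3R4 (VPS15), the scaffold BECN1 and the targeting subunits ATG14 and UVRAG, with the regulator AMBRA1, had mean levels between 2.13 and 10.5 FPKM. PIK3R4 was at 8.84, 8.94 and 8.11 FPKM in HYOU1 shRNA replicates 1 to 3 and at 17.0, 10.3 and 10.01 FPKM in control replicates 1 to 3. All HYOU1 shRNA values were below all control values, and control replicate 1 was the highest of the 6. The log2 fold change of -0.48 did not pass (limma, adjusted p = 0.192), and those of -0.23 without control replicate 1 (adjusted p = 0.0404) and -0.37 after the GC correction (adjusted p = 0.0418) did. The other 5 members did not pass in any of the 3 fits. BECN1 was at 3.76, 4.04 and 3.72 FPKM in HYOU1 shRNA libraries against 3.26, 3.66 and 3.50 FPKM in control libraries, which did not overlap, with a log2 fold change of 0.14 and a 95% interval of -0.17 to 0.45. Reads of BECN1 may be mixed with those of CNTD1 and PSME3, which share 12.4% and 4.68% of its exonic bases on the other strand.

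ATG2A and ATG2B are lipid transfer proteins that feed the growing membrane, and the 2 paralogs differed most among the members that were not called. ATG2A was at 21.2, 19.5 and 24.1 FPKM in HYOU1 shRNA replicates 1 to 3 and at 7.30, 14.7 and 13.8 FPKM in control replicates 1 to 3. ATG2B was at 0.790, 0.751 and 0.882 FPKM in HYOU1 shRNA libraries against 2.68, 1.43 and 1.51 FPKM in control libraries. Neither gene overlapped between the groups, with ATG2A higher and ATG2B lower in HYOU1 shRNA libraries, and control replicate 1 was the most extreme control for both. The log2 fold changes were 0.91 for ATG2A (standard error 0.28, limma, adjusted p = 0.0801) and -1.07 for ATG2B (standard error 0.29, adjusted p = 0.0594). Without control replicate 1 they were 0.59 (adjusted p = 0.00152) and -0.79 (adjusted p = 0.0213), and after the GC correction 0.47 (adjusted p = 0.00305) and -0.96 (adjusted p = 0.0115). The longest transcripts hold 64.0% GC for ATG2A and 44.2% for ATG2B.

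ATG9A, a lipid scramblase carried on vesicles that seed the autophagosome, was at 12.3, 12.6 and 13.7 FPKM in HYOU1 shRNA replicates 1 to 3 and at 13.8, 16.2 and 15.9 FPKM in control replicates 1 to 3. The groups did not overlap, with control replicate 1 barely above the highest HYOU1 shRNA library. The difference of -0.25 did not pass (limma, adjusted p = 0.216) but those of -0.32 without control replicate 1 (adjusted p = 0.00857) and -0.54 after the GC correction (adjusted p = 0.0215) did. A further annotated gene on the same strand, AC068946.2, shares 38.8% of the exonic bases of ATG9A and averaged 0.0178 FPKM, so the level of ATG9A is uncertain if shared reads were set aside in counting.

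The PI3P-binding WIPI proteins recruit the conjugation machinery and ATG2. Beside WIPI1, the family holds WIPI2, which recruits ATG16L1, and WDR45B (WIPI3) and WDR45 (WIPI4), which bind ATG2. In the fits after the GC correction and without control replicate 1 all 4 passed, 3 rising and WIPI2 falling. Of all tested genes 40.6% and 44.3% passed in those fits (20.4% and 24.6% higher, 20.2% and 19.7% lower). WIPI2 was at 10.9, 11.8 and 11.6 FPKM in HYOU1 shRNA replicates 1 to 3 and at 12.2, 14.0 and 16.1 FPKM in control replicates 1 to 3. Its log2 fold change was -0.29 with all libraries (limma, adjusted p = 0.202), -0.39 without control replicate 1 (adjusted p = 0.00578) and -0.41 after the GC correction (adjusted p = 0.00410).

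WDR45B was among the most abundant members, at 43.9, 41.6 and 41.0 FPKM in HYOU1 shRNA replicates 1 to 3 and at 34.7, 31.6 and 34.8 FPKM in control replicates 1 to 3. The groups were well separated and control replicate 1 lay within the other controls, yet the log2 fold change of 0.33 did not pass (limma, adjusted p = 0.0905). It was 0.35 without control replicate 1 (adjusted p = 0.00399) and 0.28 after the GC correction (adjusted p = 0.0428). WDR45, at 22.9, 26.3 and 26.3 FPKM in HYOU1 shRNA libraries against 15.5, 20.8 and 21.1 FPKM in control libraries, passed at 0.26 without control replicate 1 (adjusted p = 0.0261) and at 0.27 after the GC correction (adjusted p = 0.0147), and at 0.40 with all libraries it did not (adjusted p = 0.139). PRAF2, on the same strand, shares 13.9% of the exonic bases of WDR45 and averaged 12.6 FPKM, so the level of WDR45 is uncertain.

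Ratios of paralogs within a library do not depend on how libraries were scaled to each other, though they still carry the GC trend of control replicate 1, and 6 pairs were compared. The pairs were chosen with these values known, and 3 against 3 libraries cannot give an exact two-sided permutation p below 0.10, so the ratios are a description. WIPI1 over WIPI2 was 0.896, 0.904 and 1.00 in HYOU1 shRNA replicates 1 to 3 and 0.503, 0.457 and 0.404 in control replicates 1 to 3. The mean ratio was 2.05 times higher in HYOU1 shRNA libraries, and 2.17 times higher with control replicate 1 left out. ATG2A over ATG2B was 26.8, 25.9 and 27.4 in HYOU1 shRNA libraries and 2.73, 10.3 and 9.18 in control libraries, a 3.61 times higher mean ratio that became 2.74 without control replicate 1. The groups overlapped for the other 4 pairs, ULK1 over ULK2, WDR45 over WDR45B, MAP1LC3A over MAP1LC3B and GABARAPL1 over GABARAPL2.

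**Figure D3:**
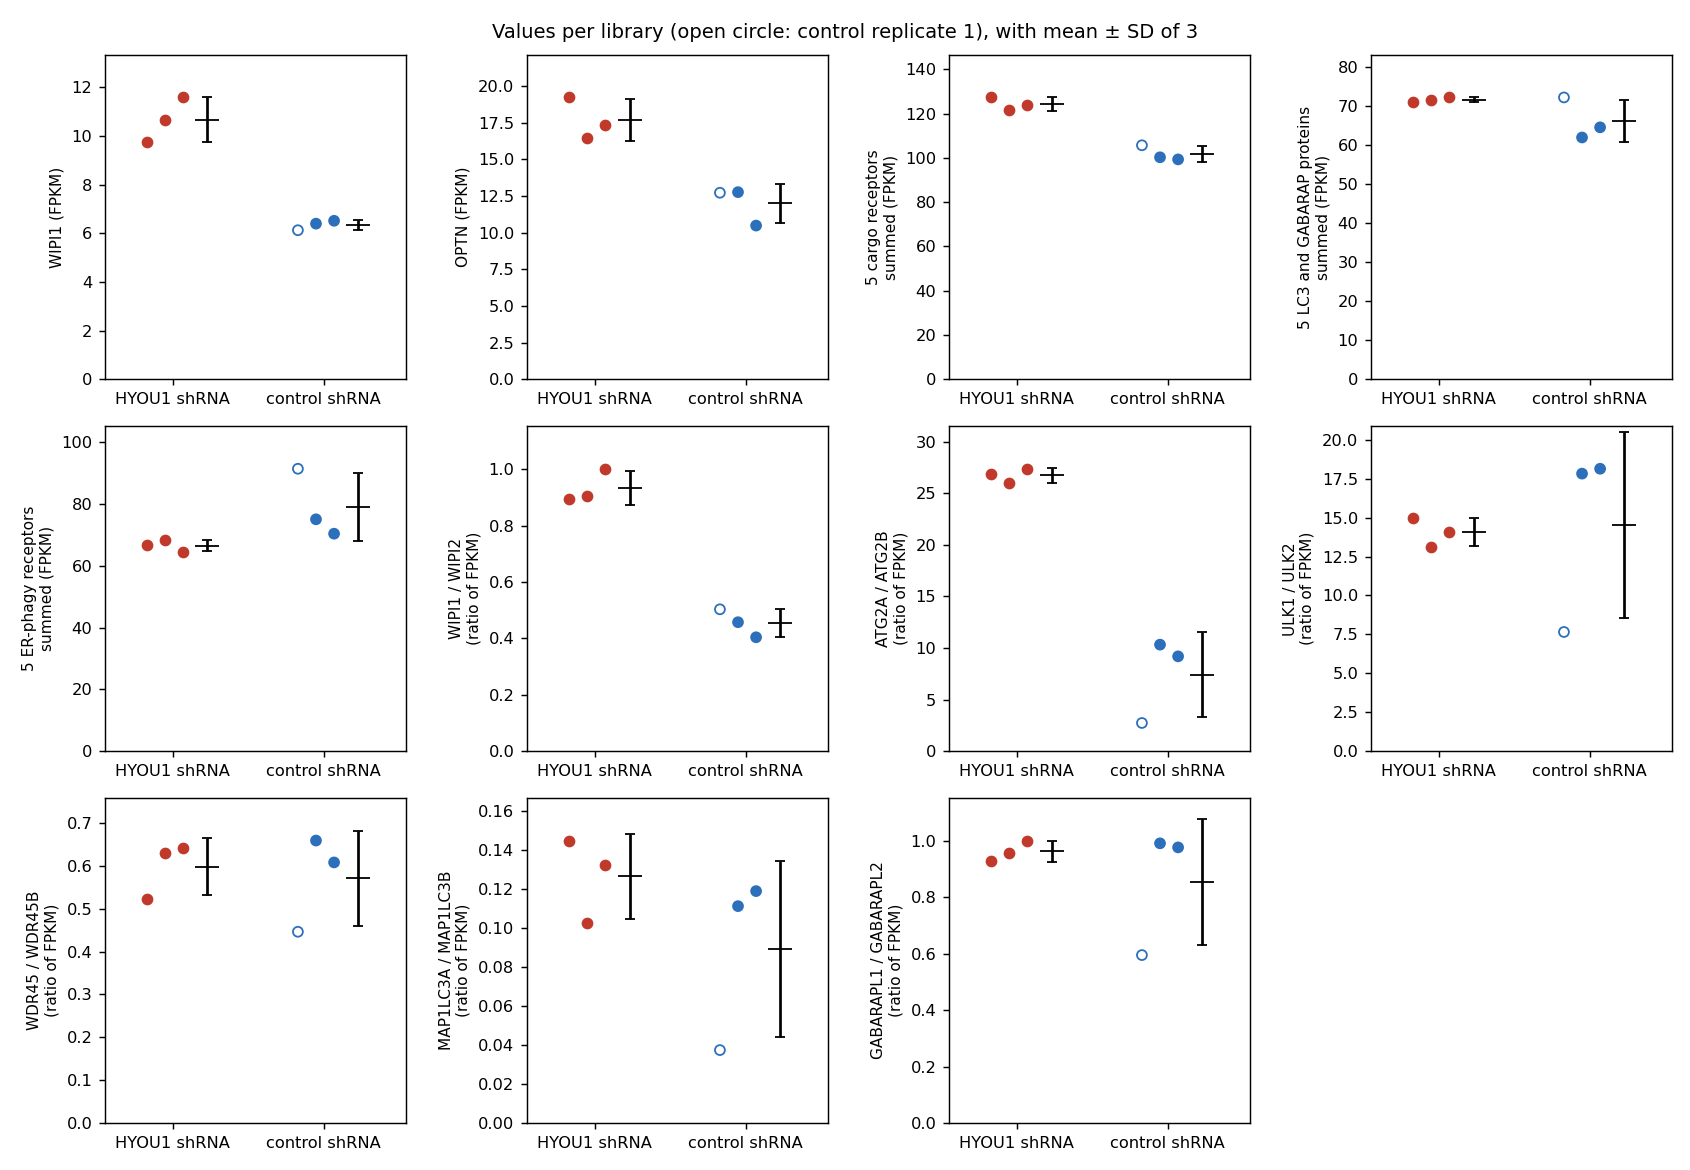
Values per library for WIPI1, OPTN, the summed levels of the cargo receptors, of the LC3 and GABARAP proteins and of the ER-phagy receptors (FPKM, 5 genes each) and all 6 ratios of paralogs, with HYOU1 shRNA at the left and control shRNA at the right of each panel. Points are libraries, the open point is control replicate 1, and bars show the mean ± SD of 3. The groups are separate for WIPI1, OPTN, the cargo and ER-phagy receptor sums, WIPI1 over WIPI2 and ATG2A over ATG2B, and overlap for the LC3 and GABARAP sum and the other 4 ratios.

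The conjugation enzymes link ATG12 to ATG5 through ATG7 and ATG10, and LC3 and GABARAP proteins to lipid through ATG7, ATG3 and the ATG12-ATG5-ATG16L1 complex. Their mean levels lay between 1.33 and 9.61 FPKM, and their log2 fold changes between -0.42 (ATG5) and 0.08 (ATG12), with 0 of 6 past the threshold (limma, and 0 at an unadjusted p under 0.05). Of all tested genes 12.3% passed and 31.5% had an unadjusted p under 0.05, so a count of 0 among 6 genes says little. ATG12, the ubiquitin-like modifier, passed without control replicate 1, at 0.33 (adjusted p = 0.0303), and after the GC correction, at 0.28 (adjusted p = 0.0440). It was at 4.56, 5.16 and 4.42 FPKM in HYOU1 shRNA libraries against 6.29, 3.66 and 3.76 FPKM in control libraries, so control replicate 1 was the highest and the other controls the lowest. ATG3, ATG5, ATG7, ATG10 and ATG16L1 did not pass in either fit. ATG16L1 was at 0.06 with a 95% interval of -0.23 to 0.34 with all libraries.

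The ATG4 proteases prime LC3 and GABARAP proteins and later release them from lipid. ATG4A averaged 4.26 ± 0.0185 FPKM in HYOU1 shRNA libraries and 5.19 ± 0.707 FPKM in control libraries, and ATG4C 5.09 ± 0.531 and 5.39 ± 1.02 FPKM in the same groups (SD, n = 3 each). ATG4D, with the highest GC content of the members, was at 8.36, 9.92 and 11.3 FPKM in HYOU1 shRNA libraries against 3.11, 8.25 and 8.49 FPKM in control libraries, where control replicate 1 was far below the others. None of these 3 passed in any of the 3 fits (with all libraries limma gave adjusted p = 0.235, 0.800 and 0.271 for ATG4A, ATG4C and ATG4D). ATG4B, the protease with the broadest known activity, was at 5.87, 5.78 and 6.58 FPKM in HYOU1 shRNA libraries against 4.66, 6.91 and 6.82 FPKM in control libraries. Its log2 fold change was 0.01 with all libraries (adjusted p = 0.982), -0.18 without control replicate 1 (adjusted p = 0.146) and -0.32 after the GC correction (adjusted p = 0.0274).

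LC3 and GABARAP proteins are the ubiquitin-like modifiers that coat the autophagosome and bind cargo receptors. MAP1LC3B, GABARAPL1 and GABARAPL2 were the abundant forms, at mean levels of 22.9, 19.99 and 22.3 FPKM, and MAP1LC3A and GABARAP at 2.41 and 1.42 FPKM. GABARAP shares 30.5% of its exonic bases with AC120057.2 on the same strand, a gene listed at 0 in every library, so its low level is uncertain. MAP1LC3B was at 23.4, 23.2 and 24.5 FPKM in HYOU1 shRNA replicates 1 to 3 and at 28.4, 19.3 and 18.6 FPKM in control replicates 1 to 3. Control replicate 1 was the highest of the 6 and the other controls the lowest. The log2 fold change was 0.13 with all libraries (limma, adjusted p = 0.663), 0.32 without control replicate 1 (adjusted p = 0.00403) and 0.11 after the GC correction (adjusted p = 0.680).

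MAP1LC3A was at 3.39, 2.38 and 3.24 FPKM in HYOU1 shRNA replicates 1 to 3 and at 1.06, 2.15 and 2.21 FPKM in control replicates 1 to 3, without overlap. Its log2 fold change of 0.75 did not pass (limma, adjusted p = 0.154), nor did 0.43 without control replicate 1 (adjusted p = 0.0653) or 0.30 after the GC correction (adjusted p = 0.155). GABARAP, GABARAPL1 and GABARAPL2 did not pass in any of the 3 fits, with log2 fold changes of 0.04, 0.21 and 0.0008 with all libraries. The 95% interval for GABARAPL2 was -0.32 to 0.32. Summed over the 5 genes the level was 71.1, 71.6 and 72.4 FPKM in HYOU1 shRNA libraries and 72.2, 62.0 and 64.6 FPKM in control libraries, with overlap through control replicate 1.

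The cargo receptors bind ubiquitinated or otherwise marked cargo and LC3 at once. SQSTM1 (p62), which gathers protein aggregates and is itself degraded by autophagy, was the most abundant member. It was at 53.7, 53.3 and 57.3 FPKM in HYOU1 shRNA replicates 1 to 3 and at 33.9, 44.6 and 48.0 FPKM in control replicates 1 to 3. The groups did not overlap. Its log2 fold change of 0.39 did not pass (limma, adjusted p = 0.141), that of 0.24 without control replicate 1 did (adjusted p = 0.0166), and that of 0.16 after the GC correction did not (adjusted p = 0.0813). MRNIP, on the other strand, shares 20.7% of the exonic bases of SQSTM1 and averaged 2.70 ± 0.164 FPKM in HYOU1 shRNA libraries and 2.39 ± 0.675 FPKM in control libraries (SD, n = 3 each).

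NBR1, a receptor that works with SQSTM1, was at 26.0, 24.7 and 23.3 FPKM in HYOU1 shRNA replicates 1 to 3 and at 23.7, 19.2 and 19.7 FPKM in control replicates 1 to 3. It overlapped through control replicate 1 alone, and the log2 fold change was 0.24 with all libraries (limma, adjusted p = 0.241), 0.34 without control replicate 1 (adjusted p = 0.00459) and 0.34 after the GC correction (adjusted p = 0.00349). CALCOCO2 (NDP52), a receptor for bacteria and mitochondria, passed at 0.26 without control replicate 1 (adjusted p = 0.0319) and at 0.25 after the GC correction (adjusted p = 0.0237). TAX1BP1, its relative, was at 18.0, 16.7 and 15.9 FPKM in HYOU1 shRNA libraries against 24.5, 14.6 and 13.1 FPKM in control libraries, and was called at 0.28 with control replicate 1 left out (adjusted p = 0.0225), but not after the GC correction, at 0.04 (adjusted p = 0.905).

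As a group, 1 of 5 cargo receptors rose with all libraries, 5 of 5 without control replicate 1 and 3 of 5 after the GC correction, and 0 fell in each (limma, with 2 higher and 0 lower at an unadjusted p under 0.05 with all libraries). The rises without control replicate 1 were between 0.24 and 0.60 (log2), in a fit where 24.6% of all tested genes rose. With all libraries 6.60% of all tested genes rose, and 17.0% were higher at an unadjusted p under 0.05. The share that rose was 20.4% once the GC trend had been removed. The summed level of the 5 receptors was 128, 121 and 124 FPKM in HYOU1 shRNA replicates 1 to 3 and 106, 100.3 and 99.3 FPKM in control replicates 1 to 3. The HYOU1 shRNA libraries were all above the controls.

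ER-phagy receptors sit in the ER membrane and bind LC3 or GABARAP proteins. RTN3, which acts on ER tubules in its long form, was the most abundant, at 43.1, 44.2 and 42.6 FPKM in HYOU1 shRNA replicates 1 to 3 and at 57.5, 48.1 and 44.0 FPKM in control replicates 1 to 3. The ranges overlapped slightly, and the log2 fold change of -0.19 did not pass in any of the 3 fits (limma, adjusted p = 0.348 with all libraries). The table gives 1 value per gene, so the long form of RTN3 cannot be told from the others. ATL3, a membrane-shaping GTPase and receptor of ER tubules, was at 10.3, 10.7 and 9.55 FPKM in HYOU1 shRNA libraries against 17.6, 13.5 and 12.4 FPKM in control libraries. All HYOU1 shRNA values were lower, and the log2 fold change was -0.49 with all libraries (adjusted p = 0.0903), -0.35 without control replicate 1 (adjusted p = 0.00937) and -0.32 after the GC correction (adjusted p = 0.0116).

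RETREG1 (FAM134B), a receptor of ER sheets, was at 6.86, 6.28 and 6.31 FPKM in HYOU1 shRNA replicates 1 to 3 and at 9.82, 5.01 and 5.03 FPKM in control replicates 1 to 3. Control replicate 1 was the highest of the 6 libraries and the other controls were the lowest. The log2 fold change was 0.04 with all libraries (limma, adjusted p = 0.927), 0.36 without control replicate 1 (adjusted p = 0.00975) and 0.19 after the GC correction (adjusted p = 0.276). TEX264 showed the mirror image, at 4.46, 4.90 and 4.35 FPKM in HYOU1 shRNA libraries against 2.74, 6.16 and 6.69 FPKM in control libraries, with control replicate 1 the lowest. TEX264, a major ER-phagy receptor during starvation, was at -0.08 with all libraries (adjusted p = 0.881), -0.48 without control replicate 1 (adjusted p = 0.00422) and -0.21 after the GC correction (adjusted p = 0.480).

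CCPG1, an ER-phagy receptor known to be induced by ER stress, was at 2.00, 2.31 and 1.72 FPKM in HYOU1 shRNA replicates 1 to 3 and at 3.78, 2.30 and 2.29 FPKM in control replicates 1 to 3. The values overlapped and the difference of -0.42 did not pass (limma, adjusted p = 0.273), nor did -0.19 without control replicate 1 (adjusted p = 0.342) or -0.23 after the GC correction (adjusted p = 0.163). A read-through gene on the same strand, DNAAF4-CCPG1, shares 38.7% of its exonic bases and is listed at 0, so the level of CCPG1 is uncertain. Among the 5 ER-phagy receptors 1 fell in both the fit without control replicate 1 and that after the GC correction, namely ATL3. Of all tested genes 19.7% and 20.2% fell in those fits. The summed level of the 5 receptors was 66.7, 68.4 and 64.6 FPKM in HYOU1 shRNA replicates 1 to 3 and 91.4, 75.1 and 70.4 FPKM in control replicates 1 to 3, which did not overlap, with RTN3 making up most of each sum.

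**Figure D4:**
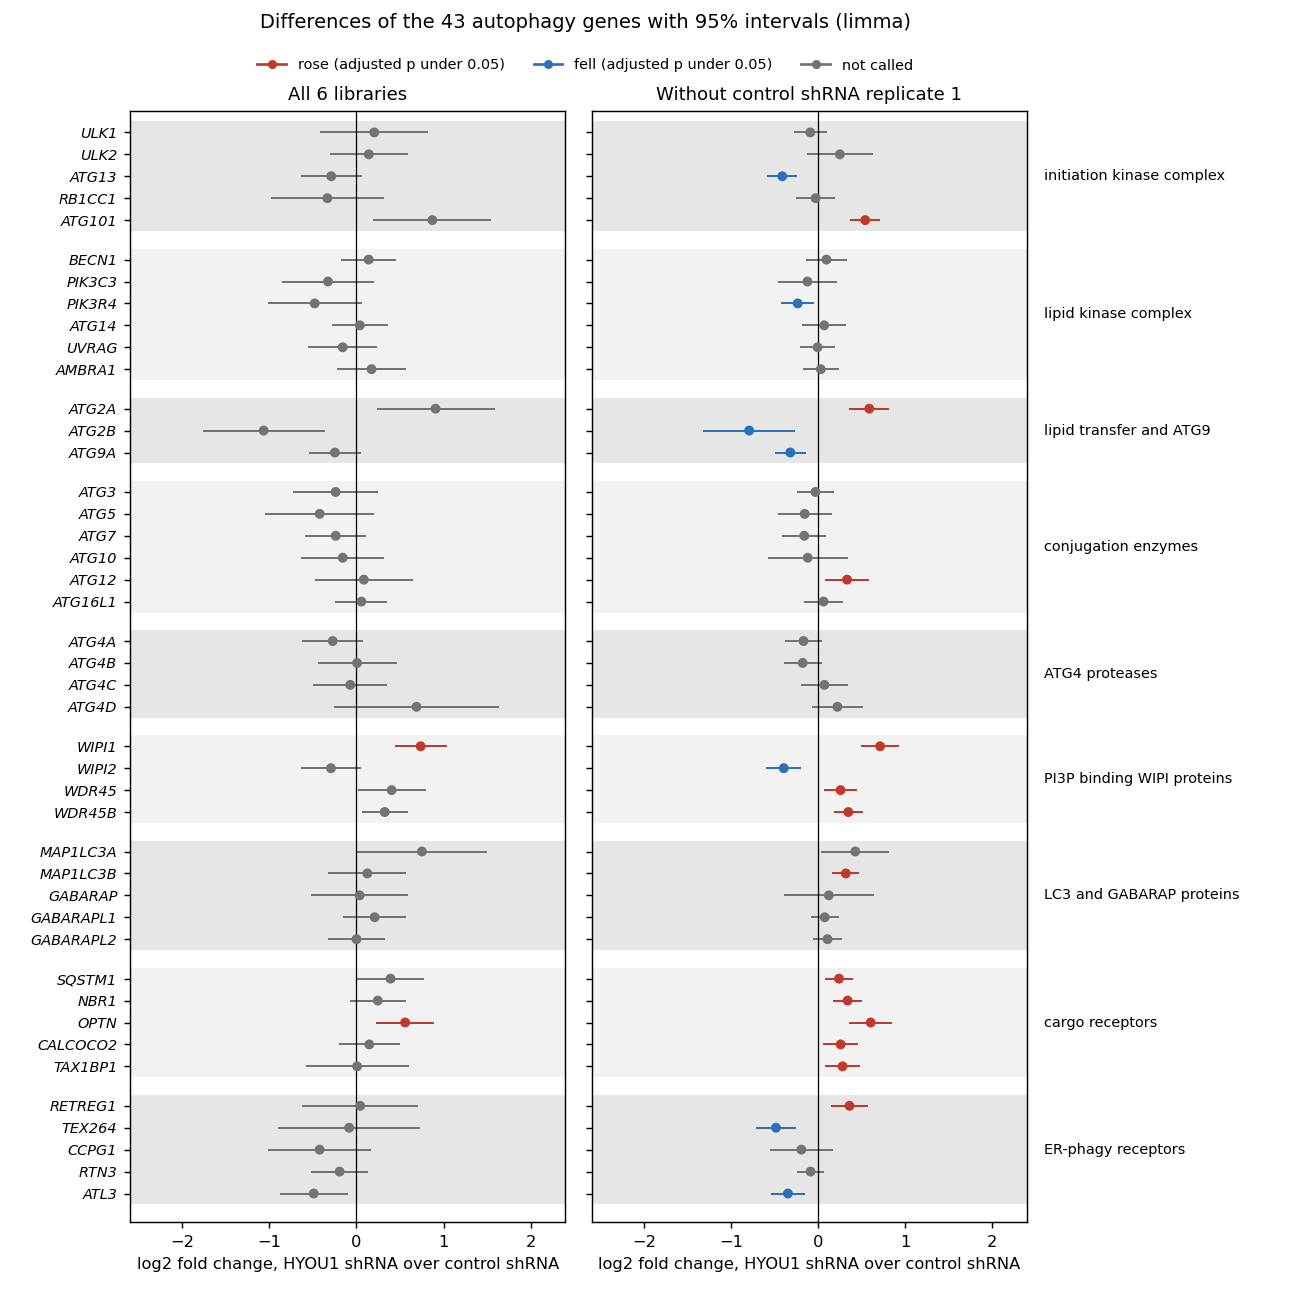
Log2 fold changes of the 43 autophagy genes, HYOU1 shRNA over control shRNA, with 95% intervals from limma, for all 6 libraries (left) and without control shRNA replicate 1 (right). Red marks genes that rose and blue genes that fell at an adjusted p under 0.05. With all libraries WIPI1 and OPTN are coloured, and without control replicate 1 the intervals are narrower (median width 0.41 against 0.83), with 13 genes in red and 7 in blue.

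Of 95 further genes around autophagy, listed by function in 6 groups, 89 passed the filter. With all libraries 1 rose and 5 fell, a share of 6.74% beside the 12.3% of all tested genes. The 6 calls became 0 without any one of the HYOU1 shRNA libraries or without control replicate 2, 3 with the replicate block and 35 without control replicate 1. The shares of all tested genes in those fits were 0.394% to 1.01%, 2.87%, 7.55% and 44.3%, so these counts moved with the whole table. In the group that serves fusion with the lysosome, 3 of 17 fell, beside 5.66% of all tested genes that fell. VPS39, a HOPS tethering subunit, was at 4.42, 3.99 and 4.45 FPKM in HYOU1 shRNA replicates 1 to 3 and at 8.05, 7.63 and 7.25 FPKM in control replicates 1 to 3. All HYOU1 shRNA values were far below the controls, and control replicate 1 was close to the other controls. VPS39 fell by 0.82 on the log2 scale (standard error 0.12, limma, adjusted p = 0.0125), and the difference was -0.78 without control replicate 1 (adjusted p = 0.000363).

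VPS11, a core subunit of HOPS and CORVET, was at 5.65, 6.05 and 5.64 FPKM in HYOU1 shRNA libraries against 7.45, 8.28 and 9.10 FPKM in control libraries and fell by 0.51 on the log2 scale (limma, adjusted p = 0.0488). BORCS5, of the BORC complex that helps move lysosomes outward in the cell, was at 1.31, 1.29 and 1.49 FPKM in HYOU1 shRNA libraries against 2.79, 2.27 and 2.46 FPKM in control libraries and fell by 0.83 (adjusted p = 0.0264). The groups did not overlap for either gene. VPS39, VPS11 and BORCS5 kept their call and direction after the GC correction and also with control replicate 1 left out. Of the other HOPS subunits listed, VPS33A, VPS18 and VPS16 were at -0.65, -0.22 and -0.02 and did not pass with all libraries (adjusted p = 0.0790, 0.436 and 0.933), and VPS41 was at 0.01 (adjusted p = 0.983). VPS33A and VPS18 fell without control replicate 1 (adjusted p = 0.0264 and 0.00192) and after the GC correction (adjusted p = 0.0361 and 0.00197). VPS16 and VPS41 passed in neither fit, at -0.06 and 0.31 without control replicate 1 and at -0.23 and 0.16 after the GC correction. Of the 17 fusion genes tested, 3 rose and 6 fell in each fit. Of all tested genes 24.6% and 20.4% rose in those fits, and 19.7% and 20.2% fell.

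Among nutrient and energy regulators 1 of 27 fell, SESN3, a stress-induced inhibitor of mTORC1, which was at 1.33, 1.16 and 1.17 FPKM in HYOU1 shRNA replicates 1 to 3 and at 7.04, 3.43 and 2.99 FPKM in control replicates 1 to 3. Its log2 fold change was -1.69 with all libraries (limma, adjusted p = 0.0248) and -1.32 without control replicate 1 (adjusted p = 0.000306). Of the 14 genes for further ER-phagy receptors and UFM1 conjugation, a modifier pathway used in ER-phagy, 1 fell, UFC1, the conjugating enzyme. Among all tested genes 5.66% fell with all libraries. UFC1 was at 13.7, 13.8 and 13.2 FPKM in HYOU1 shRNA libraries against 18.5, 17.95 and 21.1 FPKM in control libraries and fell by 0.49 (adjusted p = 0.0407), and both SESN3 and UFC1 were lower in every HYOU1 shRNA library than in any control. The 13 other core autophagy factors, the 10 transcription factors of autophagy genes and the 8 mitophagy receptors that were tested gave 0 calls with all libraries (3, 0 and 0 at an unadjusted p under 0.05). Of all tested genes 12.3% were called in that fit and 31.5% had an unadjusted p under 0.05, so lists this small say little. TFEB was at 3.34, 3.40 and 3.84 FPKM in HYOU1 shRNA libraries against 1.54, 3.18 and 3.06 FPKM in control libraries and did not pass in any of the 3 fits (adjusted p = 0.279 with all libraries). Of the 10 transcription factors, 3 rose without control replicate 1 (MITF, FOXO1 and FOXO3) and 0 after the GC correction. ATF4 fell in both fits, at -0.34 (limma, adjusted p = 0.00288) and -0.43 (adjusted p = 0.00653). In the same fits 24.6% and 20.4% of all tested genes rose, and 19.7% and 20.2% fell. Of the 89 genes, 14 rose and 21 fell without control replicate 1, a share of 39.3% beside 44.3% of all tested genes. After the GC correction 11 rose and 22 fell, a share of 37.1% beside 40.6% of all tested genes (20.4% higher and 20.2% lower).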

How the data were processed

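RNA sequencing of 3 HYOU1 shRNA and 3 control shRNA libraries was used. Per the labels' protocols, libraries were made from poly(A) RNA bound to oligo(dT) beads, with random-hexamer priming and no step named that marks strand. The authors deposited 1 table of FPKM values. The aligner, counter and strand setting were not given in the sources used here. Identifiers and coordinates of all 58735 genes matched GENCODE release 29 (GRCh38), and for the 43 members the deposited gene length equalled the merged exons of that annotation. Of the members, 26 share exonic bases with another gene, 23 of them on the other strand. FPKM times length came in whole multiples of 1 step per library (tolerance 0.01 fragments), which gave the fragments. The deposited scaling equalled median-of-ratios size factors. A count of 3 fragments was worth 0.160 to 0.176 FPKM at 1 kb, for counting error only.

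Values were transformed to log2(FPKM + 0.1), which understates changes of low genes. Genes averaging at least 1 FPKM over the 6 libraries (12448) were fitted with limma 3.58.1 in R 4.3.3 (variance trend, robust priors), and calls needed an adjusted p under 0.05 (Benjamini-Hochberg, over all of them). The GC correction removed, per library, a lowess trend (span 0.3) against transcript GC content (longest transcript), and with it any real difference that follows GC content. On data simulated for this comparison with 12448 genes and no GC trend, 58.6% of 1.5-fold changes and 84.0% of 2-fold changes were found. Of the calls, 5.28% were false. The simulated spreads did not draw on control replicate 1, so these shares may overstate what the fit with all libraries can find. Only 200 genes were changed in the simulation, fewer than the 1526 called in that fit. The share found depends on how many genes change, so these shares may not carry over to the real data. Members' median interval width was 0.83 in that fit and 0.41 when control replicate 1 was dropped. Members and lists were chosen with earlier results of these data known. Named with values were called members, the 6 most abundant, the 4 largest differences that were not called, members called in the other fits, and called related genes, of which 1 is not reported here. The paralogs, the summed levels, the remaining members' values, the NF-kB motif, the other HOPS subunits, TFEB, ATF4, MITF, FOXO1 and FOXO3 were added after values were seen. Alternatives were other pseudocounts (1 or 0.01), other filters (0.1 FPKM, 5 FPKM or none), TPM and quantile scaling, the replicate block, the GC correction, voom and leaving out each library. The GC correction without control replicate 1 was chosen after seeing the data.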

Additional observations from a re-analysis of the deposited data

How the results depend on the processing

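The number of autophagy genes called with all libraries, 2, became 1 with a filter of 0.1 FPKM, without a filter, with quantile normalization and with the replicate block, and WIPI1 was the gene called each time. It became 17 after the GC correction, 15 with the GC correction and the replicate block and 22 with the GC correction without control shRNA replicate 1, and it ranged from 0 to 20 when single libraries were left out, with 20 without control replicate 1. These are 39.5%, 34.9% and 51.2% of members in the 3 GC-corrected fits, near the 40.6%, 36.2% and 48.6% of all tested genes, and the settings that gave 1 member called 6.99%, 2.56%, 12.2% and 7.55% of all genes. The number of related genes called, 6, became 3 with a filter of 0.1 FPKM, 1 without a filter, 3 with the replicate block, 33 after the GC correction, 29 with that correction and the block and 40 with it without control replicate 1, and it ranged from 0 to 35 when single libraries were left out, where the share of all tested genes ranged from 0.394% to 44.3%. HYOU1 stayed called in the same direction under all 18 alternatives, at -4.59 to -4.26 with single libraries left out. Of 43 members 32 kept the sign of their log2 fold change under every alternative that gave a value, and the 11 that changed sign had not been called with all libraries. ULK1 turned to -0.24 after the GC correction, with and without the replicate block, and to -0.20 with the correction without control replicate 1. ATG4B turned to -0.32 after the GC correction, with and without the block, and to -0.24 with the correction without control replicate 1, and to -0.024 with quantile normalization and -0.020 with voom. ATG4C turned to 0.13 with the GC correction, with and without the block, and to 0.0057 with the correction without control replicate 1, under which UVRAG was at 0.0073. GABARAPL2 and TAX1BP1 turned to -0.10 and -0.087 with quantile normalization and to -0.023 and -0.013 with voom. With single libraries left out the ranges were -0.089 to 0.35 for ULK1, -0.018 to 0.091 for ATG14, -0.18 to 0.10 for ATG4B, -0.17 to 0.073 for ATG4C, -0.049 to 0.33 for ATG12, -0.12 to 0.19 for GABARAP, -0.086 to 0.11 for GABARAPL2, -0.17 to 0.28 for TAX1BP1, -0.12 to 0.36 for RETREG1 and -0.48 to 0.15 for TEX264. The cause of these changes was not tested.

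The labels do not say whether the replicate numbers pair the libraries. Deviations of same-numbered libraries from their group means correlated at 0.12, -0.09 and 0.17 across genes. Those of unlike-numbered libraries correlated at -0.21 to 0.16. The check cannot exclude pairing, because deviations within a group depend on each other and control replicate 1 stood apart. With the block 1 autophagy gene and 3 related genes were called. Leaving out a library of either group leaves 2 against 3. The precision is limited by 3 libraries per group and, for members such as MAP1LC3A, by as few as 32 fragments.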
